A study of Mus musculus with 12 samples.

Results

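The genes described here encode the core and assembly proteins of the box C/D and H/ACA small nucleolar ribonucleoproteins (snoRNPs). They are 10 of the 24221 rows in the authors' deposited table, picked by symbol: Fbl, Nop56, Nop58, Nhp2l1, Dkc1, Gar1, Nhp2, Nop10, Nolc1 and Naf1. All 10 had a row, and all 10 were among the 13814 genes that carried an adjusted p-value. The cells were mouse acute myeloid leukaemia cells of C57BL/6 strain that carry the fusion MLL-AF9, in every group. The table compares Riok2fl/fl MLL-AF9 cells given hydroxytamoxifen (OHT) with Riok2fl/fl MLL-AF9 cells given ethanol (EtOH), 3 samples each, at 72 h. MLL-AF9 cells given DMSO or 1 µM of a RIOK2 inhibitor (3 samples each) are not analysed here. The labels name neither the recombinase that OHT acts through nor how many independent lines were used. Cells without floxed Riok2 that received OHT are not part of the comparison, so OHT itself and the loss of Riok2 cannot be told apart.

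Small nucleolar RNAs guide chemical changes of ribosomal RNA in the nucleolus by pairing with the site to be changed. Box C/D RNAs carry a methyltransferase that marks the ribose, and box H/ACA RNAs carry a synthase that turns uridine into pseudouridine. In each class a fixed set of 4 proteins binds the RNA, and most of these RNAs are cut from introns of protein genes or of non-coding host genes. A few RNAs of either class are needed for the processing of precursor ribosomal RNA instead, and the telomerase RNA is held by the same H/ACA proteins. RIOK2, the kinase whose gene is floxed in the cells compared here, acts later, on the maturing small ribosomal subunit.

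The table gives no value per sample. Each gene has a base mean, the normalised read count averaged over the libraries, beside a fold change on the log2 scale and the standard error (SE) of that change, which is the value after every ± sign here. The targeted gene, Riok2, had a change of -3.60 ± 0.20 on the log2 scale (adjusted p = 7.8e-69, authors' deposited table). That sign is the reason for reading every fold change as OHT over EtOH. Levels per group below were computed from the base mean and the fold change, for 3 libraries on each side. They are levels relative to the other genes' reads, so RNA per cell was not measured, and in bulk RNA fewer cells of a type and less RNA per cell cannot be told apart. Whether replicates were separate cultures is not stated in the labels, and the p-values therefore reflect only how these samples vary, possibly for technical reasons.

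All 10 snoRNP genes fell in OHT at the authors' adjusted p-value under 0.05. Among all genes tested, 23.4% were called lower (25.5% higher and 48.9% in either direction). The members' log2 fold changes ran from -1.77 (Gar1) to -1.23 (Fbl), with a median of -1.49 beside 0.05 over all tested genes. At that median the OHT level is 35.5% of the EtOH level. Each of the 10 also had a log2 fold change under -1 with its adjusted p past the threshold, as did 7.3% of all tested genes. Their base means lay between 494 (Nhp2l1) and 5972 (Nop58). Of the 6442 tested genes in that range, 30.7% were called lower, 6.58% were called lower with a log2 fold change under -1, and the median was -0.02. The members were chosen with results of these data known, so the counts describe them and are not a test of the list.

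**Figure D1:**
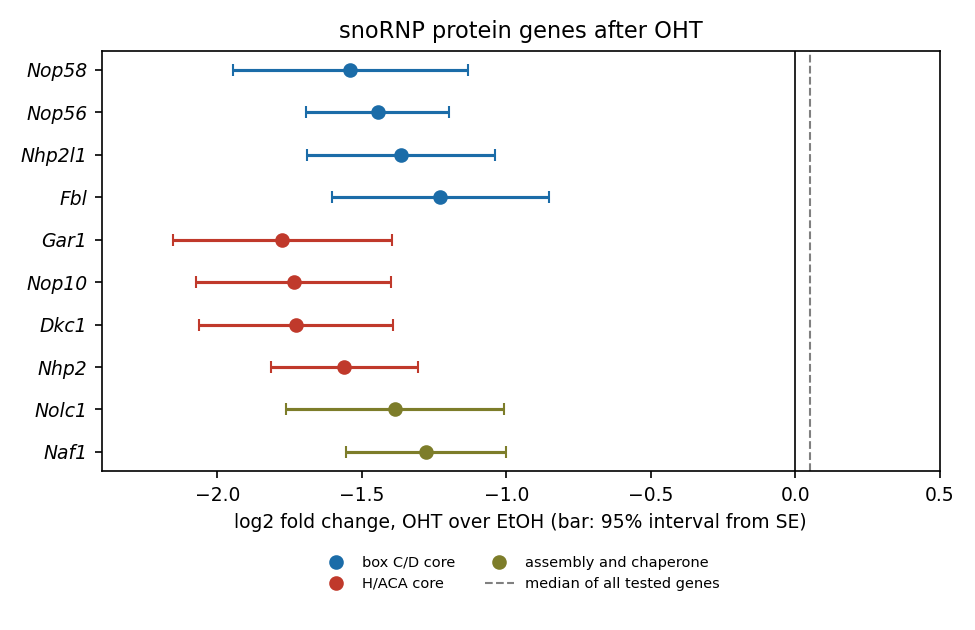
Log2 fold change, OHT over EtOH, of the 10 snoRNP genes in the authors' deposited table, grouped by role, with 95% intervals computed from the authors' SE (3 libraries per group). The points run from -1.77 for Gar1 to -1.23 for Fbl, every interval lies below 0 (Gar1 -2.15 to -1.40, Fbl -1.60 to -0.85), and the dashed line is the median of all 13814 tested genes, 0.05.

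The 4 box C/D core genes fell to between 34.4% and 42.7% of their EtOH levels. Fbl (GRCm38 chromosome 7, 28169710 to 28179269, plus strand) encodes fibrillarin, the methyltransferase of the particle. Its computed level was 2846 normalised reads per library in EtOH and 1214 in OHT, 42.7% of EtOH with a 95% interval of 32.9 to 55.3%. The change of -1.23 ± 0.19 on the log2 scale (adjusted p = 1.3e-09, authors' deposited table) was the smallest of the 10. Nop56 (chromosome 2, 130274430 to 130279313, plus strand) encodes a scaffold protein that holds fibrillarin on the RNA. It went from 5410 to 1987 normalised reads, a change of -1.44 ± 0.13 on the log2 scale (adjusted p = 2.5e-28, authors' deposited table). Nop58 (chromosome 1, 59684971 to 59719044, plus strand) encodes the partner scaffold on the other side of the particle. It was the member with the most reads, 8888 in EtOH and 3056 in OHT, with a change of -1.54 ± 0.21 on the log2 scale (adjusted p = 1.6e-12, authors' deposited table). Nhp2l1 (current symbol Snu13, chromosome 15, 82040525 to 82047598, minus strand) encodes the protein that first binds the folded box C/D RNA and that also sits in the U4 spliceosomal particle. It had the fewest reads of the 10, 712 in EtOH and 276 in OHT, with a change of -1.37 ± 0.17 on the log2 scale (adjusted p = 3.8e-15, authors' deposited table).

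Both scaffold genes are themselves hosts of snoRNAs. On GRCm38 (the assembly called mm10), the GENCODE M21 annotation places 5 snoRNA genes inside Nop56, 4 inside Nop58 and 1 inside Dkc1. All 10 lie on the host's strand and share no base with the exons of its principal transcript. So 3 of the 10 members hold an annotated snoRNA, beside 1.66% of the 12552 tested protein coding genes. The 4 RNAs in Nop58 introns are shown because they carry the signature that the box C/D proteins bind. Capitals mark the letters TGATG near the 5′ end, part of box C, and CTGA near the 3′ end, box D, searched on the RNA strand. They lie at chr1:59691934-59692020, chr1:59692509-59692592, chr1:59704258-59704338 and chr1:59704790-59704873, all on the plus strand, and are printed 5′ to 3′ as DNA letters.
Snord70: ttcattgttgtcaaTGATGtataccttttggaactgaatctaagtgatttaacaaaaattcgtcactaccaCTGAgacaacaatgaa
Gm26293: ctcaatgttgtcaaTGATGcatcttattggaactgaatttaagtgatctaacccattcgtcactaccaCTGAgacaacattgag
Gm26287: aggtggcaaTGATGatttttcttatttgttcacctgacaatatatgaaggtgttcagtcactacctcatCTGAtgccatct
Snord11: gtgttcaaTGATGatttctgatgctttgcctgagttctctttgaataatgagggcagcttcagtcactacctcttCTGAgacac

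Nop56 holds RNAs of both classes. Snord110 (chr2:130275506-130275573), Gm23187 (chr2:130277195-130277280) and Gm23650 (chr2:130277697-130277766) had both box C/D letters. Gm24451 (chr2:130276237-130276369) had the H/ACA signature instead, 3 overlapping or neighbouring matches to ANANNA in its middle and ACA near its 3′ end. All are on the plus strand. In Snord57 of Nop56 and in Gm25520 of Dkc1 neither pair of letters was found in these positions. One RNA of each class is shown, with the matching letters in capitals.
Snord110: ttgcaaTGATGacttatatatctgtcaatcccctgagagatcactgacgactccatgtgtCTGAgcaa
Gm24451: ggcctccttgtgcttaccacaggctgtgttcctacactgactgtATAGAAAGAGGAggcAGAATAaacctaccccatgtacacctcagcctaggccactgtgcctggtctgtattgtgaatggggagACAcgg

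Of these 10 hosted RNAs, 4 have a row of their own in the authors' deposited table. Their counts were too low to follow the hosts: base means were 0.882 for Snord110, 0.548 for Snord70 and 0.431 for Snord11, none of which had an adjusted p-value. Snord57 had a base mean of 5.96 and a change of -0.25 ± 0.68 on the log2 scale (adjusted p = 0.78, authors' deposited table). Over all 119 rows named Snord, Snora or Scarna, 22 had a base mean of 0 and 63 were tested, with 7 lower and 0 higher. That is 11.1% called, in genes whose median SE was 0.66, beside 48.9% of all tested genes (23.4% lower and 25.5% higher). The 39 tested box C/D rows gave 5 lower (median log2 fold change -0.52) and the 24 tested H/ACA rows gave 2 lower (median -0.37). The median SEs of these rows, 0.68 and 0.66, were close to the largest SE of any gene, 0.747. Fold changes with such SEs are taken to be strongly shrunken towards 0, so these medians cannot be set against those of the snoRNP genes. The row with the highest base mean, 62.5, was Snord104, which had -1.50 ± 0.35 on the log2 scale in the authors' deposited table (adjusted p = 6.9e-05). Next came Snora65 (-0.81 ± 0.39, adjusted p = 0.07), Snord96a (-0.70 ± 0.35, adjusted p = 0.085) and Snord22 (-0.82 ± 0.38, adjusted p = 0.059), none past the threshold of the authors' deposited table. The sources used here do not say how reads on an intronic snoRNA were divided between it and its host's precursor.

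The 4 H/ACA core genes fell to between 29.2% and 33.9% of their EtOH levels. Dkc1 (chromosome X, 75095854 to 75109777, plus strand) encodes dyskerin, the pseudouridine synthase. Its computed level was 5580 normalised reads in EtOH and 1684 in OHT, 30.2% of EtOH with a 95% interval of 23.9 to 38.1%. This was a change of -1.73 ± 0.17 on the log2 scale (adjusted p = 2.8e-22, authors' deposited table). Gar1 (chromosome 3, 129824912 to 129831396, minus strand) encodes a protein that joins dyskerin late and completes the particle. It had the steepest fall of the 10, from 2405 to 703 normalised reads, with a change of -1.77 ± 0.19 on the log2 scale (adjusted p = 1.1e-18, authors' deposited table). Nhp2 (chromosome 11, 51619735 to 51623714, plus strand) encodes the RNA-binding protein of the particle, a relative of the Nhp2l1 product. It went from 4719 to 1600 normalised reads, and its change of -1.56 ± 0.13 on the log2 scale (adjusted p = 2.0e-31, authors' deposited table) had the smallest p-value of the 10, rank 119 of all tested genes. Nop10 (chromosome 2, 112261926 to 112263269, plus strand) encodes a small protein wedged between dyskerin and NHP2. It went from 2111 to 634 normalised reads, a change of -1.74 ± 0.17 on the log2 scale (adjusted p = 3.9e-22, authors' deposited table).

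Naf1 and Nolc1 act on the way to the finished particle. Naf1 (chromosome 8, 66860217 to 66890564, plus strand) encodes an assembly factor that holds the place of GAR1 on dyskerin while the H/ACA particle forms. Its computed level was 998 normalised reads in EtOH and 412 in OHT, with a change of -1.28 ± 0.14 on the log2 scale (adjusted p = 6.5e-18, authors' deposited table). Naf1 and Gar1, whose products follow each other at the same site, stood at 41.3% (95% interval 34.0 to 50.0%) and 29.2% (22.5 to 38.0%) of EtOH. The difference between them was not tested. Nolc1 (chromosome 19, 46075863 to 46085530, plus strand) encodes a phosphoprotein of nucleoli and Cajal bodies that binds both snoRNP classes. It went from 5601 to 2144 normalised reads, a change of -1.39 ± 0.19 on the log2 scale (adjusted p = 9.5e-12, authors' deposited table).

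Among the members the H/ACA core genes lay lowest. All 4 of them (-1.77 to -1.56) were below all 4 box C/D core genes (-1.54 to -1.23), and the medians were -1.73 and -1.40. The gap of -0.33 between these medians could not be tested, because the errors of genes measured in the same libraries are not independent and no value per sample is at hand. The intervals overlap throughout: every one of the 10 contains the values from -1.5556 to -1.398. Nhp2 and Nop58, next to each other across the border between the classes, had -1.56 and -1.54. The SD of the 10 log2 fold changes was 0.20, beside SEs of the single genes of 0.13 to 0.21.

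**Figure D2:**
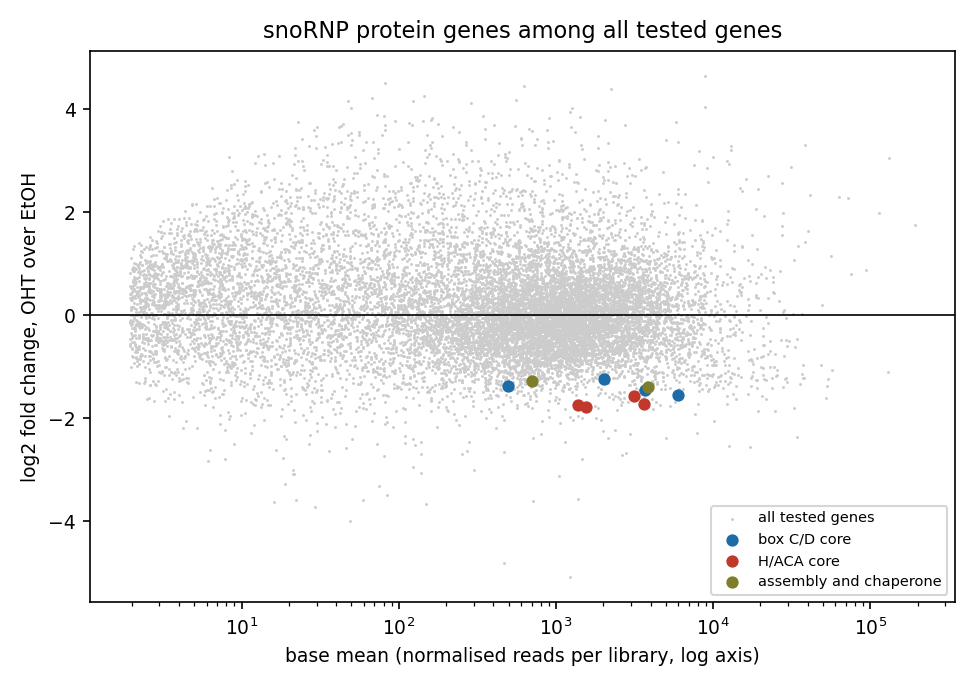
Base mean (normalised reads per library, log axis) against log2 fold change, OHT over EtOH, for all 13814 tested genes (grey) and the 10 snoRNP genes (coloured by role). The 10 points lie between base means of 494 and 5972 and between log2 fold changes of -1.77 and -1.23, in the lower part of the grey cloud, which reaches -5.08.

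Few genes had a steeper fall than the members. Below Gar1 lay 1.06% of all tested genes and below Fbl 4.61%. Among the tested genes in the members' base mean range the shares were 0.481% below Gar1 and 3.14% below Fbl. The precision of the members was ordinary. Their median SE was 0.17, and that of the 6442 genes in the range was 0.16. Nop58 had the widest error of the 10, and 84.2% of the genes in the range had a smaller one. Nop56 had the narrowest, with 12.3% of those genes below it.

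Levels were compared between members per kilobase (kb) of the longest principal transcript in GENCODE M21. By base mean per kb the order was Nop58 (3486), Nhp2 (3032), Nop56 (1970), Fbl (1696), Dkc1 (1295), Nop10 (1238), Gar1 (1222), Nolc1 (1066), Nhp2l1 (238) and Naf1 (236). The table holds no spread of levels between samples, so neighbours in this order cannot be separated. The H/ACA core genes other than Nhp2 lay close together, with 1990 (Dkc1), 1904 (Nop10) and 1892 (Gar1) normalised reads per kb in EtOH and 601, 571 and 553 in OHT, while Nhp2 stood at 4529 and 1536. The box C/D core genes were further apart, with 5189 and 1784 for Nop58, 2882 and 1059 for Nop56, 2377 and 1015 for Fbl and 343 and 133 for Nhp2l1. The OHT level of Nop58 per kb was still above the EtOH level of Nolc1, 1541.

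**Figure D3:**
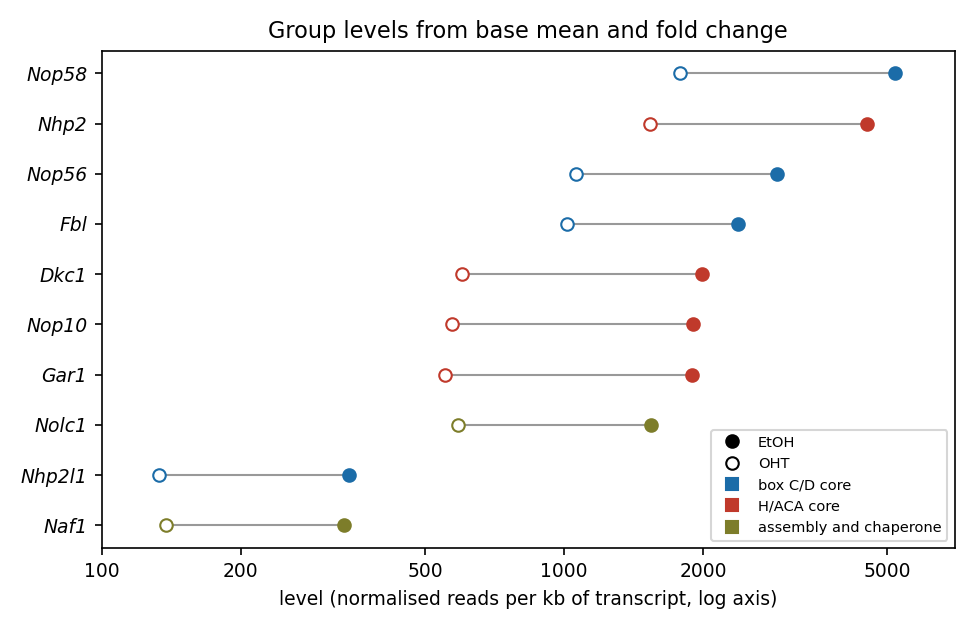
Level per kb of transcript (log axis) of each member in EtOH (filled) and OHT (open), computed from the authors' base mean and fold change, in the order of the base mean per kb and coloured by role. Levels run from 5189 (Nop58 in EtOH) to 133 (Nhp2l1 in OHT), no error of the level is available, and every open point lies to the left of its filled one.

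Some of these levels depend on how reads were shared. A search of the annotated transcripts found 9 other genes with at least 90% identity to Nhp2l1 over at least 200 bases, all processed pseudogenes, 6 such genes for Nop56 and 3 each for Fbl and Dkc1. Gar1, Nhp2 and Naf1 had 1 each, and none was found for Nop58, Nop10 and Nolc1. The closest copies of Nhp2l1 were 99.5% identical over 384 bases, and 1 match of Fbl was a Tulp4 transcript, 99.6% identical over 690 bases. The sources used here do not say what was done with reads that match several places, so the values of all members with such matches are uncertain. By share of the transcript the longest matches were those of Fbl to the pseudogenes Gm6211 (82.9%, at 92.0% identity) and Gm5812 (82.2%, at 96.85% identity). The match of Naf1, a processed pseudogene, was 92.6% identical over 1546 bases, or 51.7% of the transcript. Exons of Dkc1 and of its opposite-strand neighbour Mpp1 share 45 bases, and those of Nhp2 and Rmnd5b share 44. Mpp1 stood at 0.83 ± 0.10 and Rmnd5b at 0.07 ± 0.18 on the log2 scale in the authors' deposited table, and the part of reads in these overlaps in the members' values was not tested.

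The stretches upstream of the transcription starts were read because the members moved together. RefSeq start sites on GRCm38.p6 gave a sequence for 8 of the 10, and Fbl and Naf1 had no entry. In the 250 bases before the start, both strands were searched for CACGTG (the E-box that Myc and Max bind), CCGGAA (the core of sites of ETS factors, on the other strand TTCCGG) and CCAAT (on the other strand ATTGG). None of the 8 held CACGTG, which 6.02% of all 32851 upstream stretches did, or 9.62% of 10376 tested genes with an entry. CCGGAA was found in 5 of the 8, Nop58, Nhp2l1, Gar1, Nhp2 and Nolc1, and in 12.0% of all stretches, or 24.4% of those tested genes. CCAAT was found in 2 of the 8, Nop56 and Nhp2, in 33.8% of all stretches and in 40.3% of those tested genes. The 30 bases around the CCGGAA match nearest to the start are shown for the 5 genes, as RefSeq reference sequence with the match in capitals. They lie at chr1:59684897-59684926 (plus strand), chr15:82047635-82047664 (minus), chr3:129831419-129831448 (minus), chr11:51619738-51619767 (plus) and chr19:46075817-46075846 (plus). In Gar1 the matches on both strands overlap, and the capitals cover both. The stretch of Nhp2 lies before the RefSeq start but inside the GENCODE gene given above, whose start is further upstream.
Nop58: ggcgggaaaaacCCGGAAatgatctcacgc
Nhp2l1: agcactctcttcTTCCGGgaagggggcggg
Gar1: gccgccacacTTCCGGAAacgtcgcgtacg
Nhp2: ccacttgaaaacCCGGAAgtgatgtcggag
Nolc1: gatgacgcgtgtgggaCCGGAAgcaacttc
The nearest matches began 97, 54, 40, 23 and 14 bases before the start, in the same order. They are letters in a reference sequence, and no binding was measured here.

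The remaining snoRNP assembly factors mostly fell as well. Of 12 tested, 11 were lower and 0 higher, with a median log2 fold change of -1.06. The chaperone gene Hsp90ab1, by far the most abundant at a base mean of 52725, fell by 1.36 ± 0.14 in the authors' deposited table. The AAA+ ATPase genes Ruvbl2 (-1.33 ± 0.11) and Ruvbl1 (-1.30 ± 0.18), which work with HSP90 in snoRNP assembly, and Znhit6 (-1.33 ± 0.19), a box C/D assembly factor, fell there too. The 1 not past the threshold was Pih1d1, a subunit of the same chaperone complex, named after its value was seen, which stood in the authors' deposited table at -0.23 ± 0.16 (adjusted p = 0.23).

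Partners that box C/D proteins meet in other particles were lower too. Of 9 genes of the U3 and U4 particles, 8 fell and 0 rose, with a median of -0.88. Rrp9 (-1.42 ± 0.12), whose product binds the U3 snoRNA beside the 4 core proteins, and Imp3 (-1.33 ± 0.18), of the U3 processing complex, had the steepest falls in the authors' deposited table. The processome gene Nop14 (-1.09 ± 0.16) and the cyclophilin gene Ppih of the U4 particle (-1.15 ± 0.15) fell there as well. Prpf31, a relative of Nop56 and Nop58 in the U4 particle, was the most abundant of these and fell by 0.79 ± 0.17 in the authors' deposited table, a smaller change than that of either relative, the difference not being tested.

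Genes of snoRNA capping, Cajal bodies and telomerase had smaller changes. Of 12 tested, 9 fell and 1 rose, with a median of -0.52 on the log2 scale. In the authors' deposited table the falls included Gemin2 of the SMN complex (-1.34 ± 0.24), the cap-binding gene Ncbp2 (-0.75 ± 0.16), the coilin gene Coil of Cajal bodies (-0.72 ± 0.17) and the export receptor gene Xpo1 (-0.43 ± 0.12). Tep1, a telomerase and vault protein gene, rose by 0.89 ± 0.21 there (adjusted p = 1.4e-04). Tert, the telomerase catalytic subunit, whose RNA partner is held by the H/ACA proteins, had 3.48 normalised reads as its base mean, too few to show a change, and stood at 0.52 ± 0.74 (adjusted p = 0.58, authors' deposited table). It was named after its value was seen.

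Among proteins related to the members by sequence, the paralog of Fbl, Fbll1, had a base mean of 0. Of the 7 that were tested, 6 fell and 0 rose, with a median of -1.17. Relatives of Nhp2l1 and Nhp2 that bind kinked RNA include the ribosomal protein genes Rpl7a (-1.26 ± 0.12), Rps12 (-1.17 ± 0.19) and Rpl30 (-1.21 ± 0.40) and Rpp38 of RNase P (-1.18 ± 0.30) in the authors' deposited table. The base mean of Rpl30 was only 56.6, beside 19032 for Rpl7a and 25634 for Rps12. Secisbp2, a relative that serves selenoprotein synthesis, did not pass the threshold there (-0.11 ± 0.13, adjusted p = 0.52). Tcof1, whose product resembles that of Nolc1, fell by 1.13 ± 0.15 in the authors' deposited table.

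Enzymes that make pseudouridine without a guide RNA also went down, over a wider range than the 10 members. Of 12 tested, 11 fell and 0 rose, with log2 fold changes from -1.28 to -0.20 and a median of -0.77. Trub1 (-1.28 ± 0.18), Pus7 (-1.27 ± 0.18), Rpusd2 (-1.17 ± 0.23) and Pus7l (-1.17 ± 0.21) were lowest in the authors' deposited table, and Pus10, the most abundant, had -0.89 ± 0.14. Dkc1, the guided synthase, lay below all 12, and the difference was not tested.

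**Figure D4:**
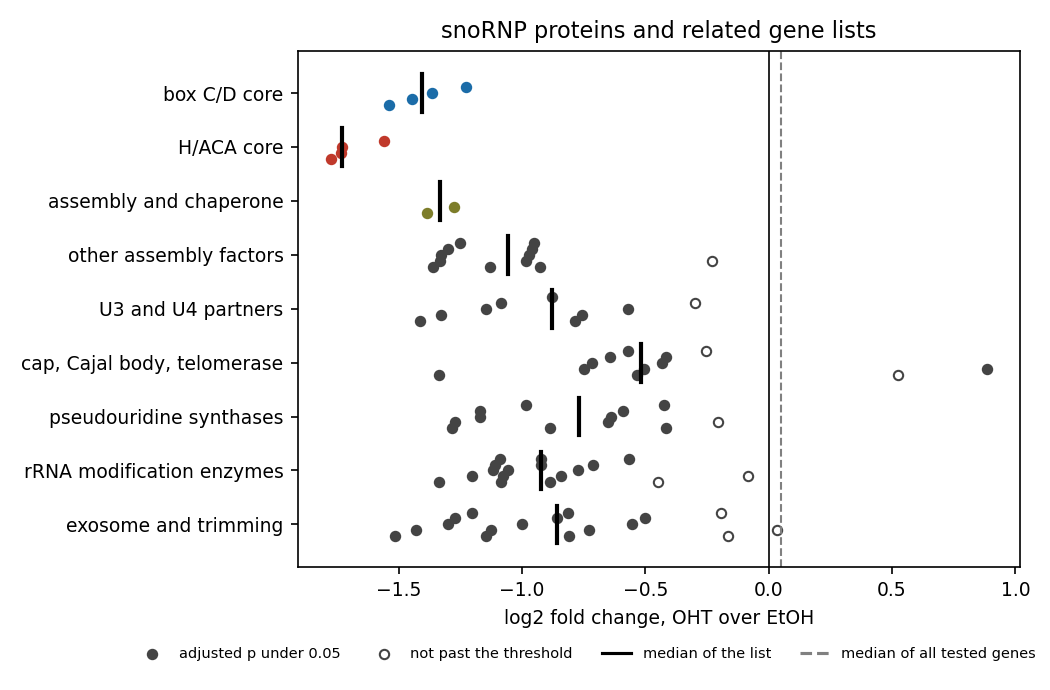
Log2 fold change, OHT over EtOH, of the tested genes of the 3 member groups and of 6 related lists, in the authors' deposited table, with 1 point per gene (filled: adjusted p under 0.05) and the list's median as a black bar. Medians run from -1.73 for the H/ACA core to -0.52 for the capping, Cajal body and telomerase list, and the dashed line is the median of all tested genes, 0.05.

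Markers of the myeloid lineage moved with the comparison. All 8 markers of the labelled cells (Hoxa9, Meis1, Mpo, Elane, Ctsg, Kit, Ptprc and Csf2rb) had base means of at least 1648. Of these 5 fell and 2 rose, and their summed level was 184365 normalised reads in EtOH and 81082 in OHT. Most of that sum came from Elane (78678.4 in EtOH and 25987.6 in OHT), Mpo (57539.5 and 11146.7) and Ctsg (29176.5 and 4954.9). The sum therefore mainly follows these granule genes and does not stand for all 8 markers. The granule protease and peroxidase genes Ctsg, Mpo and Elane stood at 16.98%, 19.4% and 33.0% of EtOH, beside 29.2% to 42.7% for the snoRNP genes. Hoxa9 (-0.55 ± 0.19) and Meis1 (-0.41 ± 0.14), transcription factor genes of this leukaemia, fell less far in the authors' deposited table. Csf2rb, a cytokine receptor gene, rose there by 1.85 ± 0.21 and Ptprc, the CD45 gene, by 1.10 ± 0.12, while Kit was not past the threshold (0.31 ± 0.26, adjusted p = 0.33). Of 8 mature neutrophil and monocyte markers 8 rose and 0 fell, and their summed level was 133265 normalised reads in EtOH and 660274 in OHT, as computed from base means and fold changes. Most of both sums came from S100a9 (89153 in EtOH and 298871 in OHT) and Lyz2 (28387.6 and 235036). The SE of Lyz2 was 0.55, so its fold change is taken to be shrunken and its computed EtOH level to be too high. None of those 8 was at 0. The erythroid markers summed to 23.2 and 23.7 normalised reads, with both globin genes at 0 and none of the 3 tested past the threshold. Stromal and endothelial markers summed to 1513 and 1800 normalised reads, nearly all from Pecam1 alone (1449 and 1708, not past the threshold). Cdh5 and Col1a2 had base means of 0.83 and 0.089. Of the 3 tested in this list, 1 rose, the collagen gene Col1a1, from 18.6 to 51.9. Cd79a, a B cell receptor gene, rose from 3.91 to 15.1 normalised reads. The part of these marker changes in the fall of the snoRNP genes was not tested.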

How the data were processed

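RNA was sequenced in 12 samples (4 groups of 3), and 1 table, for OHT against EtOH, was analysed. The submitters' processing notes name mm10, DESeq, DESeq2, HTSeq 0.9.1, STAR 2.7.2b and Trimmomatic 0.38.0. No annotation, strand setting or rule for multiply matching reads is given in the sources used here. Per gene, the authors deposited the base mean, which is a signal in normalised reads, and the log2 fold change with its SE. Their Wald score, its p-value and the adjusted one were deposited too. The deposited score equalled fold change over SE to within 7.6e-08. Base means summed to 20307732 normalised reads, and depth per sample is not analysed here. SEs did not exceed 0.747, so fold changes are taken to be shrunken by a prior and to understate changes.

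No sample test could be made. The authors' adjusted p under 0.05, from DESeq2, was the threshold throughout. Intervals (95%) are fold change ± the normal quantile times SE. The members, gene lists and alternatives were chosen with earlier results of these data known. All members are named, and from each related list the 4 largest changes past the threshold, the most abundant gene and those against the list's direction. Of the listed names, Nopchap1 and Mtr4 matched no row, the second being listed also as Skiv2l2. Older symbols were matched through RefSeq. Positions, lengths and snoRNA sequences are from GENCODE M21, and upstream stretches from RefSeq. Calculations used Python 3.11.15, pandas 2.3.3 and scipy 1.17.1 and were tested on simulated data with a known prior.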

Additional observations from a re-analysis of the deposited data

How the results depend on the processing

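The 10 member genes were lower and past the threshold under every alternative tried: adjusted p under 0.01 or 0.001, adjustment over all genes with a p-value, a base mean of at least 10, a test against a change of at most 0.5, the prior taken out, and centring on abundant genes. Over these their log2 fold changes ran from -1.90 to -1.21, and the largest adjusted p was 6.9e-04, for the test against 0.5. The counts over all genes moved more. At an adjusted p under 0.001, 4238 genes passed, 2036 lower and 2202 higher. Beyond a change of 0.5, 2684 passed, 1059 lower and 1625 higher. With the prior taken out 8424 passed, 3836 lower and 4588 higher, beside 6752 in the main setting, and all 9 U3 and U4 genes were lower. There the width of the prior was set to the largest SE, 0.747. Genes with an SE close to that had their scores inflated, so this rise in the counts does not show that more genes changed. The adjusted p of every other gene, also in the U3 and U4 list, depends on those counts. SEs of the members were at most 0.21. In the members' base mean range alone, a set added after seeing the data, 3893 passed. Beyond 0.5, fewer genes of the related lists were lower: 1 of the capping and Cajal body list, 5 of the U3 and U4 list, 3 of the relatives, 6 of the pseudouridine synthases and 9 of the exosome list. The other assembly factors and the base and ribose modification list had 10 each. At 0.001, 7 pseudouridine synthases were lower, with 6 of the capping and Cajal body list, 7 of the U3 and U4 list and 5 relatives. The modification and exosome lists had 12 each, and the other assembly factors 11. The stricter thresholds ask for more than the main setting by construction. No paired analysis was possible because the table has no column per sample, and for the same reason no replicate could be left out.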

Other observations

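Other enzymes of RNA modification, most of them acting on ribosomal RNA, and some of their partner proteins fell along with the snoRNP genes. Of 17 such genes of base and ribose modification tested, 15 were lower and 0 higher in OHT, with a median of -0.92 on the log2 scale. In the authors' deposited table the falls included Ftsj3, a nucleolar methyltransferase gene and the most abundant of them (-1.20 ± 0.17), Emg1, a pseudouridine methyltransferase of the small subunit (-1.12 ± 0.13), and the mitochondrial enzymes Rnmtl1 (current symbol Mrm3, -1.34 ± 0.29) and Tfb1m (-1.11 ± 0.24). The 2 not past the threshold, named after their values were seen, were the mitochondrial Nsun4 at -0.09 ± 0.20 and Ftsj2 (current symbol Mrm2) at -0.45 ± 0.22 there.

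The RNA exosome and its partners trim snoRNAs at their 3′ ends. Of 17 of these genes tested, 14 were lower and 0 higher, with a median of -0.86. Exosc5 (-1.51 ± 0.17), Exosc2 (-1.43 ± 0.13), Exosc6 (-1.30 ± 0.21) and Exosc1 (-1.27 ± 0.14), all of the barrel and cap, had the largest falls in the authors' deposited table, and the helicase gene Skiv2l2, the most abundant, fell by 0.50 ± 0.14. The 3 not past the threshold, named after their values were seen, were the nuclear exonuclease gene Exosc10 (-0.19 ± 0.13), the poly(A) polymerase gene Papd5 (0.03 ± 0.12) and Zcchc8 (-0.17 ± 0.14) in the authors' deposited table.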
